A study of Mus musculus with 12 samples.

Results

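The mouse genes for the inflammatory cytokines TNF, IL-1, IL-18 and IL-10 and for the TNF and IL-1 receptors, 10 in all, were followed in RNA-seq libraries of Pdgfra+ (Cd140a+) cells sorted from lung. They were Tnf, Il1a, Il1b, Il18, Il10, Il1rn, Il1r1, Tnfrsf1a, Tnfrsf1b and Il1r2, taken by gene name as 10 of the 40760 genes in the deposited tables, and all 10 were among the 17418 genes tested. The 12 libraries formed 4 groups of 3, WT or Pear1-/- mice given vehicle or bleo, where bleo is bleomycin, a drug aerosolized into the trachea to cause lung fibrosis. Per the study's methods the mice were C57BL/6 males aged 8 to 12 weeks unless stated otherwise, and the Pear1-/- line was a global knockout-first line carrying a gene-trap cassette between exon 6 and 7 of Pear1. The methods give doses of bleo and a day of analysis for the fibrosis model, but not which of them applied to these libraries or how many mice stood behind each, so p-values measure the spread between these libraries, which may be technical.

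TNF, IL-1α, IL-1β and IL-18 are alarm cytokines that drive inflammation, and IL-10 restrains it. TNF signals through a pair of receptors, the widely expressed TNFR1 (Tnfrsf1a) and the more restricted TNFR2 (Tnfrsf1b). IL-1α and IL-1β both act through IL-1R1 (Il1r1), where the antagonist IL-1RA (Il1rn) competes for binding, and the decoy receptor IL-1R2 (Il1r2) captures IL-1 without signalling. IL-1β and IL-18 are made as inactive precursors that inflammasome-activated caspase-1 cleaves, so their mRNA does not measure secreted cytokine. In lung, myeloid cells are a main source of these ligands and fibroblasts are among the cells that respond to them.

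In WT cells, bleo raised 8 of the 10 genes, with Il1b and Il1rn rising most, and lowered Il1r1, where 31.4% of all 17418 genes tested were called higher and 36.6% lower. In Pear1-/- cells, bleo raised Il1a, Il1b, Il1rn, Tnfrsf1a and Il1r2, lowered Tnf, and gave no called change in Il18, Il10, Tnfrsf1b or Il1r1, where 28.9% of all genes were called higher and 33.4% lower. After bleo, 6 genes (Tnf, Il18, Il10, Il1b, Il1rn and Tnfrsf1b) were lower and 2 (Il1r1 and Tnfrsf1a) were higher in Pear1-/- than in WT, where 23.9% of all genes were lower and 22.1% higher. The response to bleo itself differed between the genotypes for 6 genes, 1 higher (Il1r1) and 5 lower (Tnf, Il1b, Il18, Il1rn and Tnfrsf1b), where 17.9% of all genes were called higher and 19.1% lower. Calls rest on edgeR's quasi-likelihood test of the counts, two-sided, at a threshold of 0.05 after Benjamini-Hochberg adjustment over all genes tested, and a log2 fold change is given with its standard error (SE).

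The libraries held between 6702948 and 10447101 counted reads, and a floor of 3 counts corresponded to between 0.287 and 0.448 CPM (counts scaled to library size). The lowest count of any of these genes in a library was 41, for Il10. WT vehicle replicate 2 stood apart from the other WT vehicle libraries, with a chi-square of counts per degree of freedom (1 for counting noise alone) of 21.2 and 21.8 against them, and of 1.73, 2.13 and 2.67 against the Pear1-/- vehicle libraries. The value was 1.58 between WT vehicle replicates 1 and 3, 1.35 to 1.49 within WT bleo and 1.37 to 1.47 within Pear1-/- bleo. In Pear1-/- vehicle it was 1.44 between replicates 1 and 2, and 4.31 and 4.82 for replicate 3 against them. Replicates within the bleo groups thus differed by little more than counting noise, and the p-values rest partly on this small spread. By this measure WT vehicle replicate 2 went against its label, and whether the label is right cannot be settled from the counts. It was kept in WT vehicle as labelled, which affects every WT vehicle mean and each comparison with WT vehicle, and the WT responses of the 10 genes, the differences between the responses, the ratios between these genes and the pathway counts are also given without it. Pear1 itself had 576, 545 and 519 normalized counts in the WT vehicle libraries and 511, 501 and 547 in the Pear1-/- vehicle libraries, a log2 fold change of -0.08 (SE 0.073, adjusted p = 0.47). It had 256, 239 and 266 normalized counts in WT bleo and 355, 372 and 344 in Pear1-/- bleo, a log2 fold change of 0.48 (SE 0.077, adjusted p = 1.20e-04). Pear1 counts were thus not lower in the libraries labelled Pear1-/-, and Pear1-/- stands for that label throughout, so directions between the genotypes rest on it. Pdgfra, the gene for the sorted surface marker, had 4565 ± 325 normalized counts in WT vehicle and 1360.1 ± 29.9 in WT bleo, against 4165 ± 39.1 in Pear1-/- vehicle and 2392 ± 18.8 in Pear1-/- bleo (SD, n = 3), and markers of leukocytes and epithelium were present beside it.

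The upstream sequences of 9 of the 10 genes were matched by symbol in RefSeq's table of 300-base promoters (GRCm38.p6, 250 bases before to 50 from the start), with 12 promoters in all. The TATA letters TATAAA lay 29, 31 and 32 bases upstream of the start in the promoters of Tnf, Il1b and Il1a, on the strand of the gene, and were the letters searched because they can fix where transcription starts. Of all 32851 promoters, 13.6% held TATAAA at any position on either strand. The share with a match at this position on the strand of the gene was not counted. Among these genes 2 other matches, in an Il1rn and the Il18 promoter, were on the opposite strand and away from that position. The AP-1 letters TGANTCA, a palindrome read on both strands at once, were found 12 bases upstream of the start of Il1a and 141 bases upstream of the first Il1rn start, and in 7.81% of all promoters. The NF-κB consensus was found in 1 promoter, a downstream Il1r1 start, and in 8.46% of all promoters. The sequences printed here are those of the 3 ligand genes with a TATA match next to the start and of the Il1rn promoter with the AP-1 match, each 5′ to 3′ on the strand of the gene, with TATAAA and TGANTCA matches in capitals. A match is a description of these letters and not evidence of binding.
Tnf, chr17:35201958-35202257, minus strand: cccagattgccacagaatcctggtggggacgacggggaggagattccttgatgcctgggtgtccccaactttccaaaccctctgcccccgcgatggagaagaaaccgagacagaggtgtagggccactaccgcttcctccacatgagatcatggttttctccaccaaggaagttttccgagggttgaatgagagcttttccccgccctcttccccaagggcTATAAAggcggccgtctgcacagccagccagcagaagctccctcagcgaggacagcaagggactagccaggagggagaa
Il1b, chr2:129371090-129371389, minus strand: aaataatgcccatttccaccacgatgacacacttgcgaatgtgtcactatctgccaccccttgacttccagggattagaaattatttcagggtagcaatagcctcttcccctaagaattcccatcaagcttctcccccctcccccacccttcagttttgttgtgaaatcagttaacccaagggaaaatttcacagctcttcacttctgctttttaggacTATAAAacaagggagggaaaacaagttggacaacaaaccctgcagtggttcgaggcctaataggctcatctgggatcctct
Il1a, chr2:129309923-129310222, minus strand: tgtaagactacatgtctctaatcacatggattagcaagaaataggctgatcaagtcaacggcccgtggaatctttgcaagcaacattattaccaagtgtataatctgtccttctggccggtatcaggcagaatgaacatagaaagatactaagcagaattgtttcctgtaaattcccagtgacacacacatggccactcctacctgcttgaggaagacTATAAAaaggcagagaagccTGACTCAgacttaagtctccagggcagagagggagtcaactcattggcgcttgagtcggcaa
Il1rn, chr2:24336610-24336909, plus strand: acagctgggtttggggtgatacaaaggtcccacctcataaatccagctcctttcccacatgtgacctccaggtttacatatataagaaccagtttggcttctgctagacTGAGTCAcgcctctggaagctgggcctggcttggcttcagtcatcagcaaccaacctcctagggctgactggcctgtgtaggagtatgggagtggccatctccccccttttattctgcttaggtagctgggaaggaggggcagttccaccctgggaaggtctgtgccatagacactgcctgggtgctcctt

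Tnf (ENSMUSG00000024401) encodes TNF and lies on chromosome 17 from 35199381 to 35202007 (GRCm38). Its normalized counts (raw counts over a size factor that the authors set per library) were 2360.0, 1549 and 2133 in WT vehicle and 2695, 2783 and 2892 in WT bleo, against 1409, 1460.2 and 1553 in Pear1-/- vehicle and 1079, 1112 and 1141 in Pear1-/- bleo. All WT bleo libraries lay above every other library, and all Pear1-/- bleo libraries lay below every other library. With counts scaled to the whole library, Tnf rose with bleo in WT, with a log2 fold change of 0.48 (SE 0.11, adjusted p = 0.00162), and fell in Pear1-/-, with -0.40 (SE 0.12, adjusted p = 0.00676). The difference between these responses was -0.89 (SE 0.16, adjusted p = 6.29e-04) on the log2 scale. Set against Ptprc, a leukocyte gene, Tnf was instead lower with bleo in both genotypes, as given with the ratios. Per Ptprc count, 82.4% of 15306 genes were lower without overlap in WT and 24% of 15242 in Pear1-/-. The turn in WT was thus not particular to Tnf. By library-scaled counts, Tnf was 2.53-fold lower in Pear1-/- bleo than in WT bleo, a log2 fold change of -1.34 (SE 0.12, adjusted p = 2.25e-07). Both results held without WT vehicle replicate 2, where the WT response was 0.39 (adjusted p = 1.55e-07) and the difference between the responses -0.81 (adjusted p = 1.60e-11).

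Il1b (ENSMUSG00000027398), on chromosome 2 from 129364570 to 129371139, encodes IL-1β and was the most abundant of the 10 genes per kilobase (kb) of exon in every group. It had 4812, 5527 and 4889.5 normalized counts in WT vehicle and 24478, 24658 and 24409 in WT bleo, against 5431, 5508 and 5311 in Pear1-/- vehicle and 17567, 17589.7 and 17823 in Pear1-/- bleo. The vehicle groups overlapped, and the 3 tiers of vehicle, Pear1-/- bleo and WT bleo were fully separate. Il1b rose 4.87-fold with bleo in WT, a log2 fold change of 2.28 (SE 0.059, adjusted p = 9.02e-14), which was the largest of the 10 genes. In Pear1-/- the rise was 3.27-fold, a log2 fold change of 1.71 (SE 0.058, adjusted p = 2.93e-12). The response was smaller in Pear1-/-, with a difference between the responses of -0.57 (SE 0.079, adjusted p = 5.62e-05), and the bleo groups differed by -0.49 (SE 0.056, adjusted p = 4.60e-06). Both results also held with WT vehicle replicate 2 left out, when the WT response was 2.41 (adjusted p = 3.07e-37) and the difference between the responses -0.72 (adjusted p = 6.83e-14). Il1b shares 25 exonic bases with the antisense gene Il1bos, and whether the counting used strand was not given in the sources used here.

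Il1a (ENSMUSG00000027399), on chromosome 2 from 129299610 to 129309972, encodes IL-1α, which also acts on IL-1R1 and is active without cleavage. Its normalized counts were 456, 290.2 and 428 in WT vehicle and 631, 613 and 590.2 in WT bleo, against 244, 252 and 249.9 in Pear1-/- vehicle and 522, 488 and 573 in Pear1-/- bleo. Every bleo library lay above every vehicle library. The rise was 0.66 (SE 0.12, adjusted p = 2.47e-04) in WT, or 0.55 (adjusted p = 7.00e-08) without WT vehicle replicate 2, and 1.09 (SE 0.13, adjusted p = 3.24e-06) in Pear1-/-. The difference between the responses, 0.43 (SE 0.18, adjusted p = 0.0719), did not pass, but it passed with upper quartile scaling (adjusted p = 0.0497) and without WT vehicle replicate 2, at 0.52 (adjusted p = 1.16e-04). The bleo groups did not overlap, yet their difference of -0.23 (SE 0.12, adjusted p = 0.139) did not pass, while it passed with only these groups fitted (adjusted p = 4.94e-04) and without WT vehicle replicate 2, at -0.24 (adjusted p = 0.00257). Of the exonic bases of Il1a, 222 (11.2%) are shared with Gm14023 on the opposite strand, whose count was at most 94 in a library.

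Il18 (ENSMUSG00000039217), on chromosome 9 from 50554827 to 50581840, encodes IL-18, a precursor that is stored in many cells and induces interferon-γ once released. It had 65.5, 63.9 and 67.5 normalized counts in WT vehicle and 165, 183 and 142 in WT bleo, against 83.3, 78.9 and 73.1 in Pear1-/- vehicle and 92.3, 79.1 and 62.0 in Pear1-/- bleo. Only the WT bleo libraries lay above the rest, and the other 9 libraries spanned 62.0 to 92.3. In WT the rise was 2.50-fold, a log2 fold change of 1.32 (SE 0.15, adjusted p = 1.92e-06). In Pear1-/- the log2 fold change was -0.01 (SE 0.16, adjusted p = 0.976). The difference between the responses was -1.33 (SE 0.22, adjusted p = 2.44e-04), the largest among the 10 genes, and the bleo groups differed by -1.08 (SE 0.14, adjusted p = 2.01e-05). Leaving out WT vehicle replicate 2, the WT response was 1.37 (adjusted p = 6.11e-10) and the difference between the responses -1.39 (adjusted p = 1.36e-06).

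Il10 (ENSMUSG00000016529), on chromosome 1 from 131019845 to 131024974, encodes the anti-inflammatory cytokine IL-10. It was counted 41 to 114 times per library, the lowest of the 10 genes, which limits its precision. Its normalized counts were 55.8, 41.6 and 75.6 in WT vehicle and 87.3, 116 and 98.2 in WT bleo, against 44.5, 55.7 and 51.3 in Pear1-/- vehicle and 73.7, 56.7 and 69.6 in Pear1-/- bleo. The WT bleo libraries lay above all others, and the 3 remaining groups adjoined or overlapped each other. Il10 rose in WT by 0.82 (SE 0.20, adjusted p = 0.00202), and its change in Pear1-/- was 0.40 (SE 0.21, adjusted p = 0.101). It was lower in Pear1-/- bleo than in WT bleo, with a log2 fold change of -0.60 (SE 0.19, adjusted p = 0.0169), a call lost without WT bleo replicate 2 (adjusted p = 0.0717) or Pear1-/- bleo replicate 2 (adjusted p = 0.0683). The difference between the responses was -0.42 (SE 0.29, adjusted p = 0.28) and did not pass, and without WT vehicle replicate 2 it was -0.30 (adjusted p = 0.361), the WT response 0.68 (adjusted p = 8.02e-04) and the Pear1-/- response 0.38 (adjusted p = 0.0453).

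Il1rn (ENSMUSG00000026981), on chromosome 2 from 24336853 to 24351494, encodes the IL-1 receptor antagonist, the natural brake on both IL-1 ligands. It had 1081, 1429 and 1094 normalized counts in WT vehicle and 3414, 3505 and 3372 in WT bleo, against 1537, 1474 and 1443 in Pear1-/- vehicle and 2609, 2384 and 2513 in Pear1-/- bleo. Like Il1b, it formed separate tiers in vehicle, Pear1-/- bleo and WT bleo. It rose by 1.52 (SE 0.094, adjusted p = 1.51e-09) in WT and by 0.76 (SE 0.092, adjusted p = 4.68e-06) in Pear1-/-, with a difference between the responses of -0.77 (SE 0.13, adjusted p = 3.19e-04). The bleo groups differed by -0.47 (SE 0.091, adjusted p = 6.22e-04). Leaving out WT vehicle replicate 2 changed neither call, and the WT response was 1.73 (adjusted p = 4.54e-28) and the difference between the responses -0.99 (adjusted p = 9.89e-15).

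**Figure D1:**
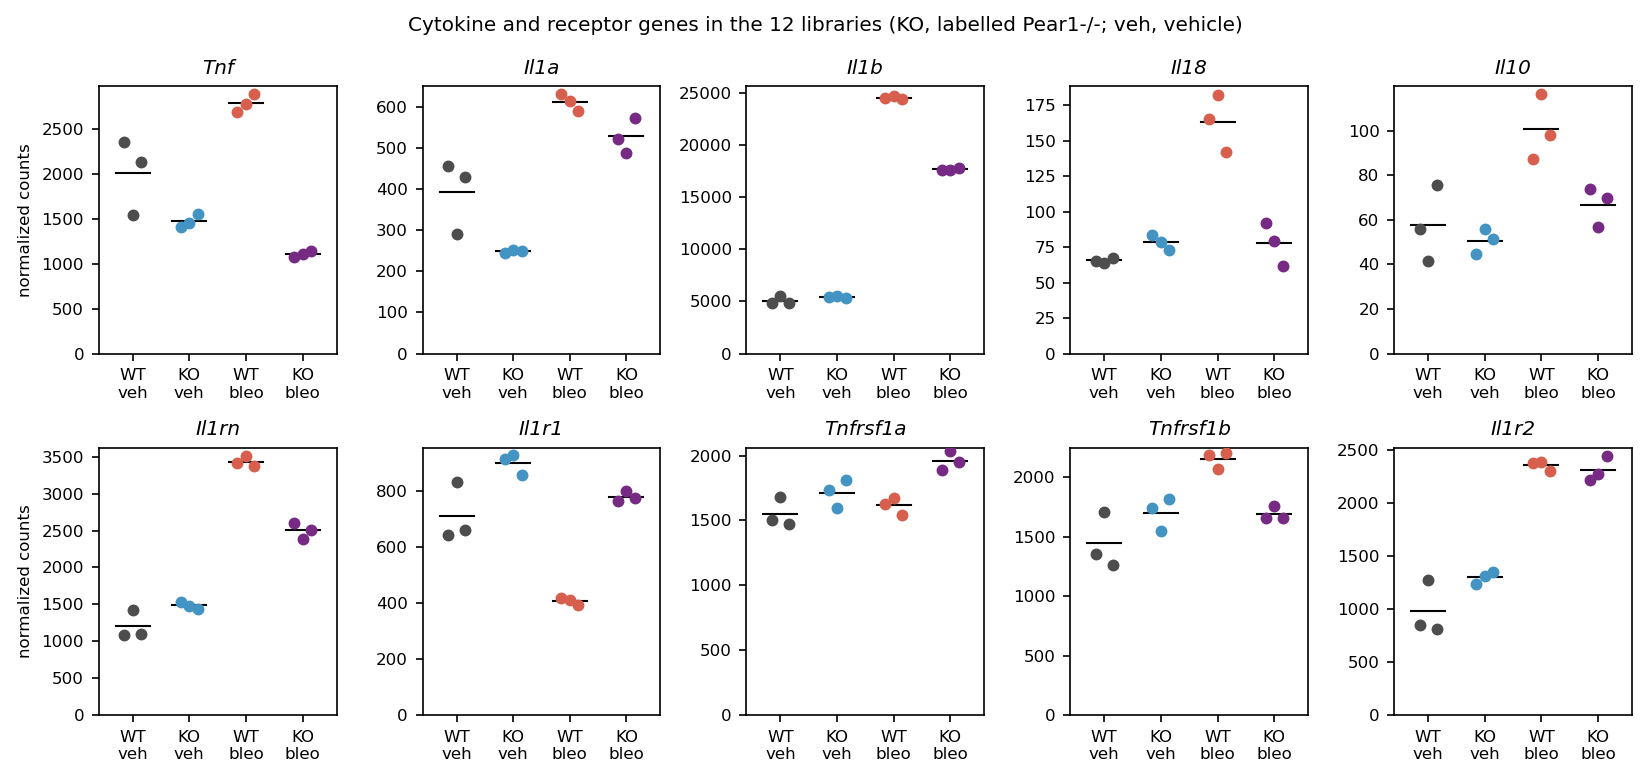
Normalized counts (vertical axes, from 0) of the 10 genes in each library of the 4 groups (KO, Pear1-/-; veh, vehicle), with 1 point per library and a line at the mean of 3. Tnf is highest in WT bleo and lowest in Pear1-/- bleo, Il1r1 is lowest in WT bleo, and the middle WT vehicle point (replicate 2) lies nearer to the Pear1-/- vehicle points for Tnf, Il1a and Il1r2.

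Il1r1 (ENSMUSG00000026072), on chromosome 1 from 40225080 to 40317257, encodes the signalling receptor for IL-1 and was the 1 gene of the 10 called lower with bleo in WT. Its normalized counts were 643, 831 and 659 in WT vehicle and 416, 410.0 and 393 in WT bleo, against 914, 927 and 855 in Pear1-/- vehicle and 765, 799 and 772 in Pear1-/- bleo. The WT bleo libraries lay below all others. The log2 fold change was -0.80 (SE 0.089, adjusted p = 1.50e-06) in WT and -0.20 (SE 0.085, adjusted p = 0.0509) in Pear1-/-, where it did not pass but passed in 6 alternative fits (adjusted p between 0.00375 and 0.0437) and without any 1 WT vehicle library. The responses differed by 0.59 (SE 0.12, adjusted p = 0.00162), and Il1r1 was 1.90-fold higher in Pear1-/- bleo than in WT bleo, a log2 fold change of 0.93 (SE 0.089, adjusted p = 6.59e-07). The WT response and the difference between the responses were smaller without WT vehicle replicate 2 but still passed, at -0.60 (adjusted p = 1.23e-09) and 0.38 (adjusted p = 7.86e-04).

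Il1r2 (ENSMUSG00000026073), on chromosome 1 from 40074079 to 40125231, encodes the decoy receptor for IL-1 and lies upstream of Il1r1 on the same strand. It had 844, 1269 and 812 normalized counts in WT vehicle and 2375, 2386 and 2296 in WT bleo, against 1238, 1312 and 1348 in Pear1-/- vehicle and 2212, 2273 and 2438 in Pear1-/- bleo. All bleo libraries lay above all vehicle libraries, and the bleo groups overlapped. It rose by 1.28 (SE 0.13, adjusted p = 3.49e-07) in WT, or by 1.58 (adjusted p = 1.55e-25) without WT vehicle replicate 2, and by 0.83 (SE 0.12, adjusted p = 3.52e-05) in Pear1-/-, and the bleo groups differed by -0.04 (SE 0.12, adjusted p = 0.818). The difference between the responses was -0.45 (SE 0.17, adjusted p = 0.0567) with all libraries and -0.77 (adjusted p = 1.10e-10) without WT vehicle replicate 2, and it passed in 5 alternative fits (adjusted p between 0.00466 and 0.0470). In WT vehicle, replicate 2 had 1269 normalized counts against 844 and 812 in its group mates. Il1r1 and Il1r2 therefore moved in opposite directions with bleo in WT.

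Tnfrsf1a (ENSMUSG00000030341), on chromosome 6 from 125349362 to 125362484, encodes TNFR1. Its normalized counts were 1505, 1682 and 1472 in WT vehicle and 1627, 1673 and 1546 in WT bleo, against 1734, 1597 and 1813 in Pear1-/- vehicle and 1887, 2035 and 1947 in Pear1-/- bleo, the smallest proportional range of the 10 genes. The log2 fold change with bleo was 0.07 (SE 0.075, adjusted p = 0.432) in WT and 0.19 (SE 0.074, adjusted p = 0.0327) in Pear1-/-. The call in Pear1-/- was lost without any 1 library of Pear1-/- vehicle, Pear1-/- bleo or WT bleo (adjusted p between 0.0544 and 0.300), with upper quartile scaling (adjusted p = 0.0979) and with no filter on low counts (adjusted p = 0.0535). Tnfrsf1a was higher in Pear1-/- bleo than in WT bleo, with no overlap, by 0.26 (SE 0.074, adjusted p = 0.00896), a call lost without any 1 of these 6 bleo libraries (adjusted p between 0.0526 and 0.118). The difference between the responses was 0.13 (SE 0.11, adjusted p = 0.371). Without WT vehicle replicate 2 it was -0.02 (adjusted p = 0.932), and the WT response was 0.19 (adjusted p = 0.00496) and passed.

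Tnfrsf1b (ENSMUSG00000028599), on chromosome 4 from 145213463 to 145246870, encodes TNFR2. It had 1353, 1708 and 1265 normalized counts in WT vehicle and 2184, 2066 and 2202 in WT bleo, against 1740.4, 1548 and 1817 in Pear1-/- vehicle and 1659, 1758 and 1659 in Pear1-/- bleo. The WT bleo libraries lay above all others, which overlapped. It rose by 0.59 (SE 0.10, adjusted p = 8.17e-05) in WT, while in Pear1-/- the log2 fold change was -0.0043 (SE 0.10, adjusted p = 0.972). The responses differed by -0.59 (SE 0.14, adjusted p = 0.00368), and without WT vehicle replicate 2 by -0.81 (adjusted p = 7.12e-11), with a WT response of 0.79 (adjusted p = 1.44e-14). The bleo groups differed by -0.36 (SE 0.10, adjusted p = 0.007), a call lost without WT bleo replicate 3 (adjusted p = 0.0516), Pear1-/- bleo replicate 1 (adjusted p = 0.0517) or Pear1-/- bleo replicate 3 (adjusted p = 0.0568).

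**Figure D2:**
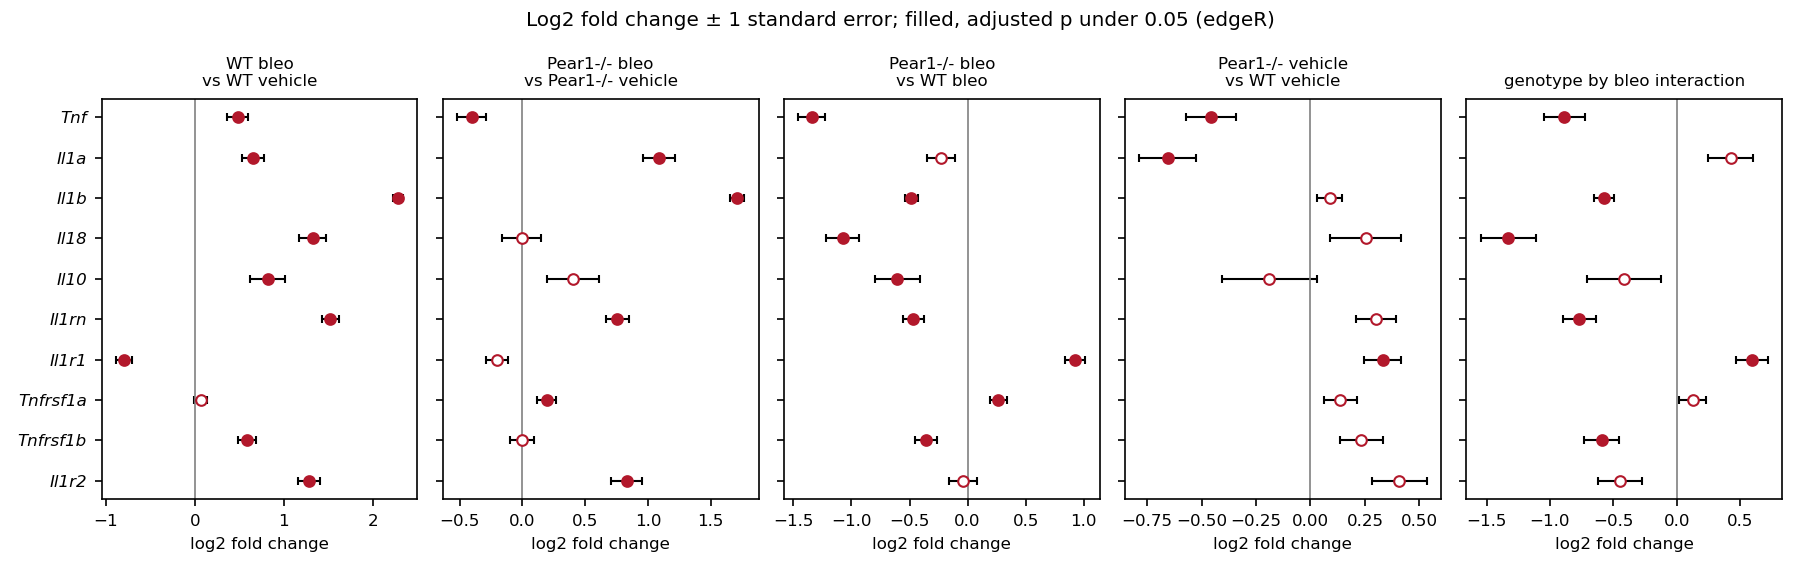
Log2 fold change (horizontal axes, which differ in range) of the 10 genes in each of 4 comparisons and in the difference between the genotypes' responses to bleo (genotype by bleo interaction). Points are edgeR estimates, bars are 1 SE on each side, and filled points had an adjusted p under 0.05; Tnf lies right of 0 for WT bleo and left of 0 for Pear1-/- bleo.

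Across the 10 genes, the median log2 fold change with bleo was 0.74 in WT, against -0.07 for all genes tested, and 0.30 in Pear1-/-, against -0.05. Between Pear1-/- bleo and WT bleo the medians were -0.41 for the 10 genes and -0.01 for all genes, and for the difference between the responses -0.51 and -0.0012. The medians of the 10 genes without WT vehicle replicate 2 were 0.74 with bleo in WT, against -0.21 for all genes, and -0.75 for the difference between the responses, against 0.0086. Over the 10703 genes averaging 3 or more in log2 CPM, the corresponding medians were 0.13 with bleo in WT, 0.092 with bleo in Pear1-/-, 0.018 between the bleo groups and -0.049 for the difference between the responses. With bleo in WT, 42.7% of those genes were called higher and 28.6% lower. The bleo comparisons of a genotype share its libraries with the comparison between the bleo groups, so these values are not independent of each other.

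Between the vehicle groups, Tnf and Il1a were lower in Pear1-/-, with log2 fold changes of -0.46 (SE 0.11, adjusted p = 0.0429) and -0.65 (SE 0.13, adjusted p = 0.0388), and Il1r1 was higher, with 0.33 (SE 0.086, adjusted p = 0.0452). These were 1 gene higher and 2 lower of the 10, where 0.855% of all genes were called higher and 3.65% lower. The calls turned on single libraries. Without WT vehicle replicate 2, 8 of the 10 genes passed (6 higher and 2 lower in Pear1-/-), where 25.5% of 20405 genes were called higher and 29.7% lower, with Il1r2 at 0.72 (adjusted p = 2.26e-12), Il1rn at 0.52 (adjusted p = 2.51e-09) and Tnf at -0.54 (adjusted p = 5.82e-10). Without any 1 of the other 11 libraries, none of the 10 genes passed, and with the vehicle groups fitted alone 0 of 16422 genes passed in edgeR, with 3091 at an unadjusted p under 0.05. In WT vehicle replicate 2, Tnf was at 1549 and Il1a at 290.2 normalized counts, against 1409 to 1553 and 244 to 252 in Pear1-/- vehicle.

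Levels were compared between genes as mean normalized counts per kb of exon. In WT bleo the order was Il1b (12855 ± 67.4, SD, n = 3), Tnf (1702 ± 60.4), Il1r2 (1233 ± 25.8), Tnfrsf1a (624 ± 24.9), Il1rn (619.8 ± 12.3), Tnfrsf1b (563 ± 19.3), Il1a (309.7 ± 10.3), Il18 (158 ± 19.9), Il10 (76.8 ± 11.2) and Il1r1 (63.8 ± 1.89). Of these neighbours only Tnfrsf1a and Il1rn overlapped. In Pear1-/- bleo, Tnf was at 678 ± 19.0 per kb, below Il1r2 and Tnfrsf1a, and Il1r1 was above Il18 and Il10. Il10 was lowest in the 3 groups other than WT bleo, where Il1r1 was lowest.

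Ratios within a library do not depend on how libraries were scaled. The antagonist gave 22.5, 25.8 and 22.4 counts of Il1rn per 100 counts of Il1b in WT vehicle and 13.9, 14.2 and 13.8 in WT bleo, against 28.3, 26.8 and 27.2 in Pear1-/- vehicle and 14.9, 13.6 and 14.1 in Pear1-/- bleo. Both bleo groups lay below both vehicle groups and overlapped each other, at means of 14.0 ± 0.203 and 14.2 ± 0.650 (SD, n = 3). The two-sided exact permutation p between the bleo groups was 0.8, and for bleo against vehicle it was 0.1 in each genotype, the smallest that 3 against 3 libraries allow.

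The decoy receptor gave 131, 153 and 123 counts of Il1r2 per 100 counts of Il1r1 in WT vehicle and 571, 582 and 585 in WT bleo, against 135, 142 and 158 in Pear1-/- vehicle and 289, 284 and 316 in Pear1-/- bleo. The ratio was 4.28-fold higher with bleo in WT and 2.05-fold higher in Pear1-/-, and 1.96-fold lower in Pear1-/- bleo than in WT bleo, with no overlap in any of the 3 (exact permutation p = 0.1 each). Tnfrsf1b gave 134, 123 and 142 counts per 100 counts of Tnfrsf1a in WT bleo and 87.9, 86.4 and 85.2 in Pear1-/- bleo, against 85.9 to 101.5 in WT vehicle and 96.9 to 100.4 in Pear1-/- vehicle. This ratio was thus higher with bleo in WT, at means of 133 against 92.5, and lower in Pear1-/-, at 86.5 against 99.2, without overlap in either (exact permutation p = 0.1 each). Without WT vehicle replicate 2, the log2 differences with bleo in WT were -0.68 for Il1rn per Il1b, 2.19 for Il1r2 per Il1r1 and 0.60 for Tnfrsf1b per Tnfrsf1a, against -0.75, 2.10 and 0.53 with it. The receptor ratios were chosen after the values of their genes had been seen.

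**Figure D3:**
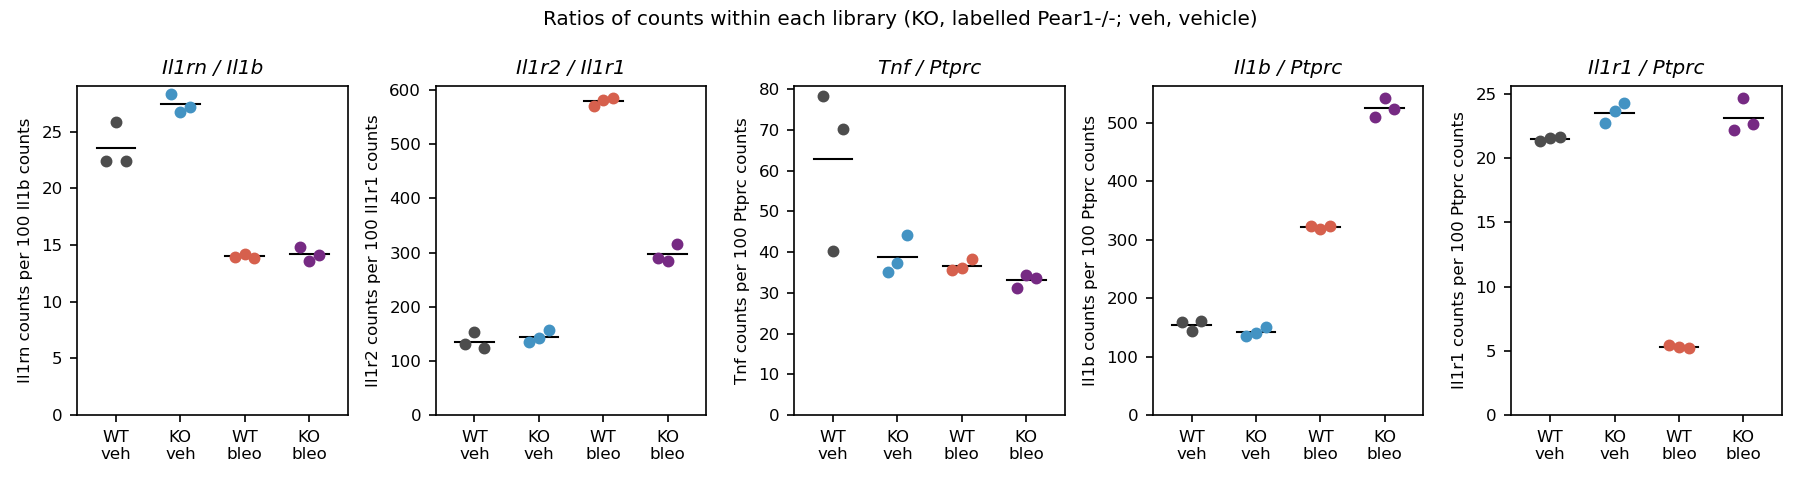
Counts of 1 gene per 100 counts of another in the same library (vertical axes, from 0), with 1 point per library of the 4 groups (KO, Pear1-/-; veh, vehicle) and a line at the mean of 3. Il1rn per Il1b falls to about the same level in both bleo groups, Il1r2 per Il1r1 is highest in WT bleo, and Il1r1 per Ptprc is lowest in WT bleo.

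Ptprc encodes CD45, a protein of leukocytes and not of fibroblasts. Its normalized counts were 3303 ± 479 in WT vehicle and 7616 ± 97.8 in WT bleo, against 3818 ± 263 in Pear1-/- vehicle and 3365 ± 109 in Pear1-/- bleo (SD, n = 3). In bulk RNA, fewer cells of a type and less RNA per cell cannot be told apart. Per 100 counts of Ptprc, Tnf had 78.4, 40.2 and 70.1 counts in WT vehicle and 35.6, 36.0 and 38.3 in WT bleo, against 35.1, 37.3 and 44.1 in Pear1-/- vehicle and 31.3, 34.3 and 33.5 in Pear1-/- bleo. On this scale Tnf was lower with bleo in both genotypes, without overlap, by log2 differences of -0.72 in WT and -0.23 in Pear1-/- (exact permutation p = 0.1 each, the smallest possible). Ptprc itself had a log2 fold change of 1.22 with bleo in WT, where 82.4% of 15306 genes were lower per Ptprc count without overlap. In Pear1-/- 24% of 15242 genes were lower. The sign of Tnf in WT on this scale thus follows the reference and is not a result about Tnf alone. Between the bleo groups Tnf was 1.11-fold lower in Pear1-/- per Ptprc count, where the counts without this reference gave 2.53-fold. Il1b had 323, 319 and 324 counts per 100 of Ptprc in WT bleo and 509.5, 543 and 523 in Pear1-/- bleo, 1.63-fold higher in Pear1-/-. Between the bleo groups 87.9% of 15091 genes were higher per Ptprc count without overlap, and 1.89% were lower.

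Per Ptprc count, 2 of the 10 genes were higher, 4 lower and 4 overlapping with bleo in WT, where 4.57% of 15306 genes were higher and 82.4% lower without overlap. With bleo in Pear1-/-, 6 were higher, 1 lower and 3 overlapping, where 43.5% of 15242 genes were higher and 24% lower. In Pear1-/- bleo against WT bleo, 8 were higher, 1 (Tnf) lower and 1 (Il18) overlapping, where 87.9% of 15091 genes were higher and 1.89% lower. Without WT vehicle replicate 2, 3 were higher, 6 lower and 1 overlapping with bleo in WT, where 5.09% of 15580 genes were higher and 89.2% lower, and the log2 difference of Tnf was -1.02. These counts follow Ptprc itself as well as the 10 genes. With the sum of 7 pan-leukocyte genes as reference, Il1b (log2 difference 0.40) was the 1 gene of the 10 with a difference above 0 for bleo in WT, and Tnf was at -1.38 there, at -0.94 in Pear1-/- and at -0.31 between the bleo groups. Without WT vehicle replicate 2, 1 gene was higher and 9 lower in WT with this reference. There 1.81% of 15581 genes were higher and 96.2% lower without overlap, so these counts were near the background. A change of reference moves all genes of a comparison by the same amount, so it turns the sign only of values within that amount of 0. Changing between these references turned the sign for 3 of the 10 genes in WT bleo against vehicle (Il1rn, Il1r2 and Il18) and for 4 in Pear1-/- bleo against vehicle (Il10, Il18, Tnfrsf1a and Tnfrsf1b). It turned 3 between the vehicle groups (Il18, Il1rn and Tnfrsf1b) and 1 between the bleo groups (Il18).

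The rest of the pathways was followed in a list of 69 genes, of which 66 were tested. With bleo in WT, 39 were higher, 14 lower and 13 not called, with a median log2 fold change of 0.43, where 31.4% of all genes were higher and 36.6% lower. Among those averaging 3 or more in log2 CPM, the largest rises were those of Nlrp1b, an inflammasome sensor (2.63, SE 0.13, adjusted p = 1.44e-10), Saa3, an acute-phase target (2.31, SE 0.17, adjusted p = 1.27e-08), Ccl2, a monocyte chemoattractant (1.69, SE 0.067, adjusted p = 1.03e-11), and Il10ra, the ligand-binding IL-10 receptor chain (1.63, SE 0.10, adjusted p = 1.28e-09). The largest falls were those of Il1f9, an IL-36 ligand (-2.90, SE 0.30, adjusted p = 6.32e-07), Il33, an alarmin of the IL-1 family (-1.30, SE 0.20, adjusted p = 3.29e-05), Vcam1, an adhesion molecule (-1.04, SE 0.064, adjusted p = 1.40e-09), and Il18r1, an IL-18 receptor chain (-0.93, SE 0.25, adjusted p = 0.00365). Of the 11 genes for processing and release of the cytokines, 9 were higher and 1 lower. With WT vehicle replicate 2 left out, 48 of the 66 genes were higher and 12 lower with bleo in WT, with a median of 0.57, where 31.7% of all genes were higher and 44.7% lower, and of the 11 processing genes 10 were higher and 1 lower.

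With bleo in Pear1-/-, 18 of the 66 genes were higher, 25 lower and 23 not called, with a median of -0.06, where 28.9% of all genes were higher and 33.4% lower, so that these counts were near the background. Among those averaging 3 or more in log2 CPM, Saa3 (4.28, SE 0.17, adjusted p = 1.90e-11), Ccl2 (1.43, SE 0.067, adjusted p = 1.02e-10), the TAK1 adaptor Tab1 (1.11, SE 0.12, adjusted p = 1.16e-06) and the NF-κB inhibitor Tnip3 (0.996, SE 0.17, adjusted p = 1.47e-04) rose most. Il1f9 (-4.04, SE 0.30, adjusted p = 2.35e-08), Il33 (-1.45, SE 0.19, adjusted p = 9.75e-06), the NF-κB inhibitor Tnfaip3 (-1.27, SE 0.12, adjusted p = 4.27e-07) and the neutrophil chemoattractant Cxcl1 (-1.23, SE 0.14, adjusted p = 2.62e-06) fell most. Of the 11 processing genes, 6 were higher and 1 lower, and of the 10 targets 2 were higher and 6 lower.

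Between Pear1-/- bleo and WT bleo, 6 of the 66 genes were higher, 32 lower and 28 not called, with a median of -0.28, where 22.1% of all genes were higher and 23.9% lower. With the same minimum of 3 in log2 CPM, the largest higher values in Pear1-/- were those of Saa3 (1.38, SE 0.14, adjusted p = 1.07e-06), Il1rap, the co-receptor of IL-1R1 (0.72, SE 0.11, adjusted p = 1.10e-04), the calpain subunit Capn2 (0.64, SE 0.065, adjusted p = 1.27e-06) and the transcription factor Stat3 (0.41, SE 0.071, adjusted p = 2.09e-04). The largest lower values were those of Nlrp1b (-2.22, SE 0.12, adjusted p = 1.75e-09), Il10ra (-1.30, SE 0.10, adjusted p = 4.57e-08), the NF-κB subunit Rel (-1.19, SE 0.066, adjusted p = 1.98e-09) and the NF-κB inhibitor Nfkbib (-1.17, SE 0.078, adjusted p = 1.36e-08). Of the 11 processing genes 9 were lower and 1 higher. Il1r1 and Il1rap, the chains of the IL-1 receptor, were both higher in Pear1-/- bleo. Of the ligands of that receptor, Il1b was lower and Il1a was not called.

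The difference between the genotypes' responses passed for 4 pathway genes in the higher and 35 in the lower direction, where 17.9% of all genes were higher and 19.1% lower. Among those averaging 3 or more in log2 CPM, they were led in the higher direction by Saa3 (1.97, SE 0.25, adjusted p = 2.44e-05), Capn2 (0.73, SE 0.092, adjusted p = 2.32e-05), Vcam1 (0.40, SE 0.089, adjusted p = 0.00276) and Tollip (0.39, SE 0.10, adjusted p = 0.00748), an adaptor that dampens IL-1 signalling. In the lower direction they were led by Nlrp1b (-2.44, SE 0.20, adjusted p = 4.29e-07), Il10ra (-1.50, SE 0.14, adjusted p = 1.15e-06), Nfkbib (-1.25, SE 0.11, adjusted p = 8.05e-07) and Casp1 (-1.16, SE 0.14, adjusted p = 2.11e-05), which encodes caspase-1. Without WT vehicle replicate 2, 4 passed in the higher and 47 in the lower direction, where 20.4% of all genes were higher and 25.99% lower. Between the vehicle groups 2 genes were called, Il18rap (0.52, SE 0.12, adjusted p = 0.0415) and Chuk (0.36, SE 0.093, adjusted p = 0.0448), both higher in Pear1-/-, where 0.855% of all genes were higher and 3.65% lower. The number of pathway genes called there was 47 without WT vehicle replicate 2, where 25.5% of all genes were higher and 29.7% lower, and 0 without any 1 of the other 11 libraries.

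**Figure D4:**
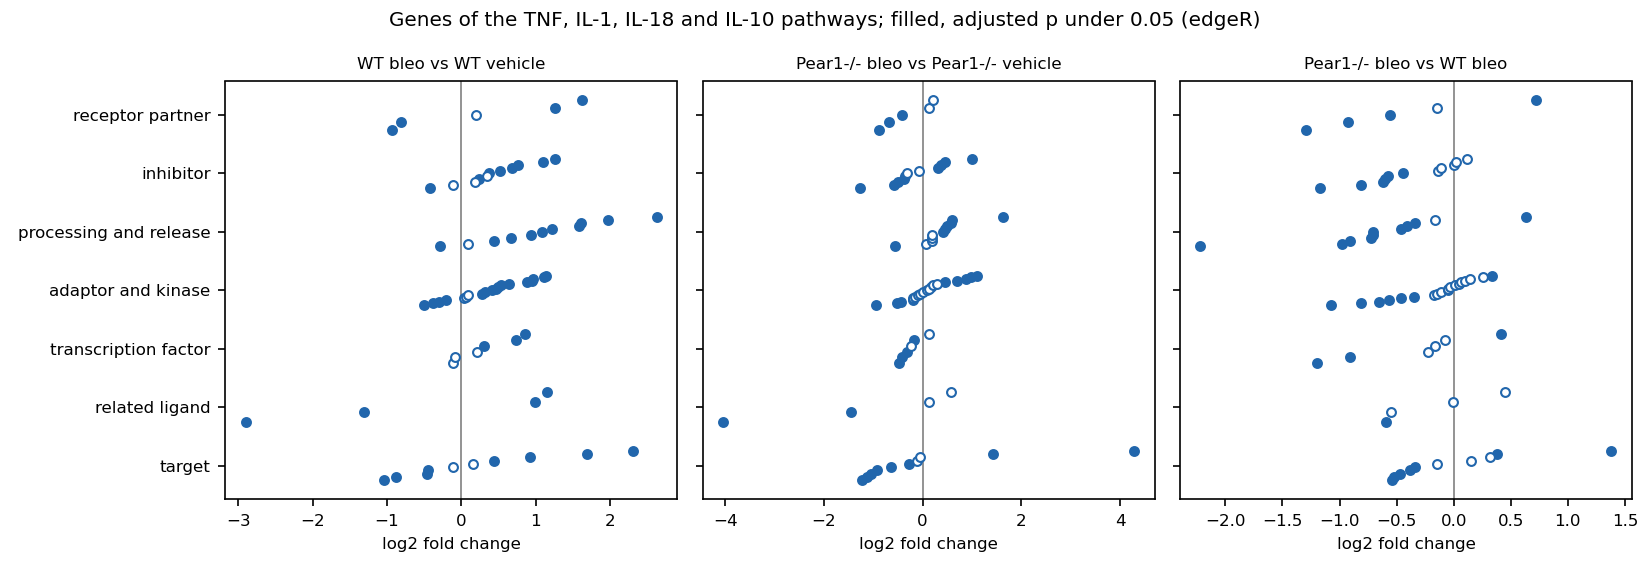
Log2 fold change (horizontal axes, which differ in range) of the 66 tested pathway genes in 7 role groups (vertical axis) for 3 comparisons, with 1 point per gene, filled where the adjusted p was under 0.05 in edgeR. The processing and release genes lie mostly right of 0 for WT bleo (9 higher, 1 lower) and mostly left of 0 for Pear1-/- bleo against WT bleo (1 higher, 9 lower).

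The genes most like each member across the 12 libraries, by Pearson's r of log2 normalized counts among 10702 other genes (10703 for Il10), are given as a description, since the libraries fall into 4 groups and share them. Il1b was most like Lpl (0.999), Prdx1 (0.999) and Fcgr2b (0.997), and Il1rn was most like Ostf1 (0.997), Gdi2 (0.996) and Slfn2 (0.996). Tnf was most like Ubl3 (0.992), Frmd4b (0.984) and Herc1 (0.982). Il1a was most like Vav2, Psme4 and Siglec1, Il18 like Fnip1, Dennd4a and Smad1, and Il10 like Med13l, Sfmbt1 and Rraga (0.942 to 0.981 for these 9). Il1r1 was most like Errfi1 (0.993) and the immunoglobulin segments Igkv8-28 and Igkv10-96, and Il1r2 like Rpl29 (0.997), Btf3 and Vasp. Tnfrsf1b was most like Cdc42se2, Psmb10 and Psmb9 (0.978 to 0.982), and Tnfrsf1a like Rpn1, Slc7a6 and Ace (0.954 to 0.956).

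Markers of other cell types also changed with bleo, some lists rising and others falling. Summed over 12 monocyte and macrophage markers, of which Lyz2 was the most abundant, normalized counts spanned 17507 to 20047 in WT vehicle and 161108 to 162031 in WT bleo, against 19416 to 20962 in Pear1-/- vehicle and 61884 to 63899.8 in Pear1-/- bleo. These sums have the same order as Il1b and Il1rn across the bleo groups, and 10 of the 12 markers were higher with bleo in WT and 10 lower in Pear1-/- bleo than in WT bleo. The 7 pan-leukocyte genes, led by Laptm5, summed to 12946 to 18119.6 in WT vehicle and 52445 to 54508 in WT bleo, against 17798 to 19066 in Pear1-/- vehicle and 26108 to 26585 in Pear1-/- bleo. The 8 neutrophil markers, led by S100a8, summed to 5116 to 16724 in WT vehicle and 1481 to 1613 in WT bleo, against 15746 to 19597 in Pear1-/- vehicle and 2174 to 2274 in Pear1-/- bleo, with Ly6g at or under the floor of 3 counts in WT bleo. Il1r2, which neutrophils also express, rose with bleo in both genotypes, where these sums were lower. Among the vehicle libraries it was higher in those with the higher sums, with 1238 to 1348 normalized counts in the 4 libraries whose sums were 15746 to 19597, against 844 and 812 in WT vehicle replicates 1 and 3, whose sums were 5192 and 5116. This split was not particular to Il1r2. Il1b, Il1rn, Il1r1, Tnfrsf1a and Tnfrsf1b were also higher in those 4 libraries, and Tnf and Il1a were lower. Without WT vehicle replicate 2, 25.5% of all genes were called higher and 29.7% lower between the vehicle groups. Whether neutrophils were a source of Il1r2 here was not tested. The 10 fibroblast markers, led by Col1a1, summed to 127256 to 148492 in WT vehicle and 110775 to 111827 in WT bleo, against 148158 to 152339.6 in Pear1-/- vehicle and 289754 to 299294 in Pear1-/- bleo, and Col1a1 alone averaged 142173 in Pear1-/- bleo. By gene, 8 of the 10 were lower with bleo in WT and 2 higher, with a median log2 fold change of -1.43, and the higher ones were Col1a1 (0.40) and Col1a2 (0.18). In turn, 7 of the 10 were higher and 1 lower in Pear1-/- bleo than in WT bleo, while against Pear1-/- vehicle 4 were higher and 5 lower, Pdgfra among the lower. Of all genes, 31.4% were called higher and 36.6% lower with bleo in WT, and 28.9% and 33.4% with bleo in Pear1-/-. Between the bleo groups 22.1% were higher and 23.9% lower. The part of these marker shifts in the differences of the 10 genes was not tested.

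In the other lists no marker was at the floor in any group. The 6 B and plasma cell markers, led by Jchain, summed to 83609 to 152505 in WT vehicle and 15049 to 15653 in WT bleo, against 146356 to 176656 in Pear1-/- vehicle and 75432 to 77958 in Pear1-/- bleo. The 6 epithelial markers, led by Scgb1a1, summed to 38475 to 56432 in WT vehicle and 13703 to 13913 in WT bleo, against 53455 to 61767 in Pear1-/- vehicle and 6022 to 6183 in Pear1-/- bleo. The 7 T and NK cell markers, led by Gzma, summed to 1540.2 to 2508 in WT vehicle and 679 to 753 in WT bleo, against 2487 to 2687 in Pear1-/- vehicle and 464 to 472 in Pear1-/- bleo. All 3 sums were lower in both bleo groups than in vehicle of the same genotype, but by gene the T and NK cell list was the 1 of these 3 with no higher marker in either genotype. In WT, 3 B and plasma cell markers were higher and 2 lower (Jchain and Mzb1) with bleo, and 2 epithelial markers (Cdh1 and Epcam) were higher and 4 lower. In Pear1-/-, 5 B and plasma cell markers were lower and none higher, and 5 epithelial markers were lower and 1 (Cdh1, log2 fold change 1.26) higher. The higher B and plasma cell sum of Pear1-/- bleo than of WT bleo was mostly Jchain, at means of 71533 and 9083 normalized counts. By gene 2 of these 6 markers (Jchain and Mzb1) were higher and 3 lower between the bleo groups, with a median of -0.33. The shares of all genes called higher and lower in each comparison are those given with the fibroblast markers. Markers other than the most abundant of a list were named after their values were seen. The 5 endothelial markers (Pecam1) summed to 2487 to 2996 in WT vehicle and 1444 to 1521 in WT bleo, against 2844 to 3252 in Pear1-/- vehicle and 1506 to 1621 in Pear1-/- bleo. The 5 dendritic cell markers (Ccr7) summed to 2939 to 3631 in WT vehicle and 3613 to 3755 in WT bleo, against 3546 to 3763 in Pear1-/- vehicle and 2653 to 2730.0 in Pear1-/- bleo, and the 4 mast cell and basophil markers (Kit) to 464 to 501 in WT vehicle and 379 to 417 in WT bleo, against 435 to 458 in Pear1-/- vehicle and 358 to 368 in Pear1-/- bleo. WT vehicle replicate 2 had the highest sum of its group for every list except mast cell and basophil markers.

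**Figure D5:**
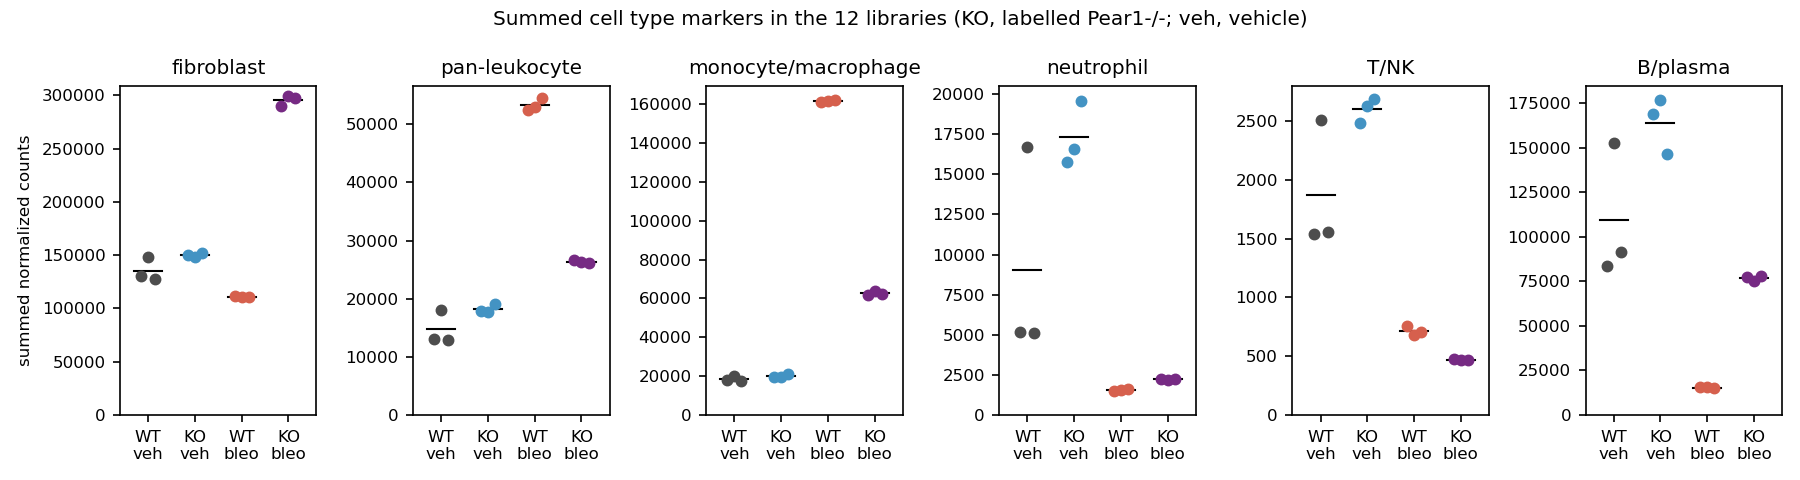
Summed normalized counts (vertical axes, from 0) of 6 marker lists in each library of the 4 groups (KO, Pear1-/-; veh, vehicle), with a line at the mean of 3. Macrophage markers are highest in WT bleo (161108 to 162031) and lower in Pear1-/- bleo (61884 to 63900), and the fibroblast sum, of which Col1a1 is the largest part, is highest in Pear1-/- bleo.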

How the data were processed

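Pdgfra+ cells were sorted by flow cytometry, cDNA came from the SMART-Seq v4 kit, and reads were aligned to GRCm38 with HISAT2 by the authors. The authors deposited raw read counts per gene (unit counts), and a second table of the same counts scaled to a linear signal: the deposited signal values equal the counts divided by 1 DESeq2 size factor per library. The counting program and its strand setting were not given in the sources used here. All 12 libraries were fitted in edgeR 4.0.16 with 1 mean per group, TMM normalization and edgeR's filter on low counts, and p-values were adjusted by Benjamini-Hochberg over 17418 genes. The fit was tested on simulated counts. Ratios were taken within libraries and compared by two-sided exact permutation tests in SciPy. Exon lengths came from GENCODE M21 and promoters from RefSeq. Alternatives were other scalings, no low-count filter, a 2-fold minimum, DESeq2 1.42.0, limma 3.58.1 on log2(signal + 1) or VST values, only the groups compared, a replicate block and each library left out. Leaving out libraries for the ratios was added after seeing the data. All 10 genes were named, with up to 4 pathway genes per direction by fold change among called genes with mean log2 CPM of at least 3. The genes and lists were chosen with earlier results of these data known.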

Additional observations from a re-analysis of the deposited data

Results flagged for a closer look

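The response to bleo differed between the genotypes for 6 of the 10 genes by edgeR's interaction term, 1 in the higher and 5 in the lower direction, where 17.9% of all genes were called higher and 19.1% lower. The difference of the log2 fold changes, Pear1-/- minus WT, was -0.89 (SE 0.16, adjusted p = 6.29e-04) for Tnf, which by library-scaled counts rose in WT and fell in Pear1-/-, -1.33 (SE 0.22, adjusted p = 2.44e-04) for Il18 and -0.77 (SE 0.13, adjusted p = 3.19e-04) for Il1rn. It was -0.59 (SE 0.14, adjusted p = 0.00368) for Tnfrsf1b, -0.57 (SE 0.079, adjusted p = 5.62e-05) for Il1b and 0.59 (SE 0.12, adjusted p = 0.00162) for Il1r1, the 1 gene with a difference above 0. All 6 passed in every setting tried, those without 1 library included, except that a 2-fold minimum left Il18 alone. The leukocyte gene Ptprc itself had a difference of -1.40 (SE 0.12, adjusted p = 7.85e-07), beyond those of the 5 lower genes. All 7 pan-leukocyte genes were called lower, with a median of -1.32. Of the 10 fibroblast markers 6 were higher and 1 lower, with a median of 0.93. The part of these marker shifts in the differences of the 6 genes was not tested.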

How the results depend on the processing

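The comparison of the vehicle groups depended most on the processing. Of the 10 genes, 3 passed there, against 6 with no filter on low counts, 5 with DESeq2, 5 with limma on log2 values, 5 with limma on VST values and 0 with only the groups compared, and of the pathway genes 2 passed, against 26, 16, 14, 17 and 0. The shares of all genes called higher and lower in these fits were 5.66% and 8.17% with no filter, 2.56% and 5.96% with DESeq2, 2.90% and 3.41% with limma on log2 values and 4.12% and 5.56% with limma on VST values. Leaving out 1 library gave 0 to 8 of the 10 genes and 0 to 47 pathway genes. A 2-fold minimum left 4, 2, 2, 0 and 1 of the 10 genes and 18, 10, 6, 0 and 11 pathway genes in WT bleo against vehicle, Pear1-/- bleo against vehicle, Pear1-/- bleo against WT bleo, the vehicle groups and the difference between the responses, where 33.9%, 27.8%, 15.02%, 2.36% and 15.7% of all genes were left. The sign changed for Tnfrsf1a in WT with upper quartile scaling (-0.079), and with no filter for Il18 (0.045) and Tnfrsf1b (0.047) in Pear1-/-. It also changed on leaving out 1 library for Il18 (-0.17 to 0.12) and Tnfrsf1b (-0.090 to 0.033) in Pear1-/-, Il10 between the vehicle groups (-0.32 to 0.062) and the difference between the responses of Tnfrsf1a (-0.018 to 0.16). None of these values passed the test, and the cause was not tested. Upper quartile scaling moved the median of all genes in WT bleo against vehicle to -0.22, with 25.2% called higher and 42.3% lower. Same-numbered libraries correlated between -0.161 and 0.0997 in their deviations and were not paired. A replicate block gave 4 pathway genes between the vehicle groups, where 0.982% of all genes were called higher and 3.05% lower, and Il1r1 in Pear1-/- (adjusted p = 0.0437) and the difference between the responses of Il1r2 (adjusted p = 0.0470) passed under it, while it changed no other call of the 10 genes. Depth limited Il10 most, with 41 to 114 counts per library.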
